A study of Zea mays with 17 samples.

Results

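Ms23, Ms32, bHLH51 and bHLH122 are 4 basic helix-loop-helix (bHLH) transcription factors of the maize tapetum that are needed for male fertility, and they were followed here through all 17 libraries of an anther RNA series. They were found by identifier in a table of 46430 genes, as Zm00001d008174 (Ms23), Zm00001d006564 (Ms32), Zm00001d053895 (bHLH51) and Zm00001d017724 (bHLH122), and all 4 rows were present. The table holds identifiers and gene lengths without names, so the names come from the identifiers by which the rows were chosen. The material was the maize (Zea mays) inbred W23 carrying bz2, which the labels call wild type, grown in a greenhouse, so every group shares 1 genotype. Anthers of 1.5 mm and 2.0 mm gave laser-captured meiocytes (ME), tapetum (TAP) and other somatic cells (OSC), with 2 libraries for each cell type and length. Fixed whole anthers (FA) gave 3 libraries at 1.5 mm and 2 at 2.0 mm. The libraries were made from total RNA with CEL-seq2, a method that primes on the poly(A) tail and reads the 3' end. The labels do not say whether replicates came from separate plants, so p-values measure only the spread between these libraries.

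The tapetum is the innermost layer of the anther wall. It feeds the meiocytes and later supplies material for the pollen wall. bHLH factors bind DNA as dimers, and in maize Ms23 acts at the head of a tapetal cascade in which Ms32, bHLH122 and bHLH51 also take part. Plants without Ms23 or Ms32 function are male sterile, with pretapetal cells that divide abnormally instead of differentiating. The rice relatives are TIP2 for Ms23, UDT1 for Ms32, TDR for bHLH51 and EAT1 for bHLH122, and in rice EAT1 and TIP2 also act in making the precursors of 24-nt phasiRNAs, the small RNAs named in the title of the series.

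Library totals ran from 280760 to 4428287 counts. At 1.5 mm the TAP libraries held 495100 and 501897 counts, against 2657831 and 3230264 at 2.0 mm. A count of 0 allows up to 3 counts, a limit of 0.677 to 10.7 CPM, the counts scaled to a common library total, depending on the library. These limits and all intervals cover counting error only. Across genes, replicate 2 of ME at 1.5 mm resembled replicate 1 of ME at 2.0 mm (Pearson's r = 0.896) more than it resembled its own replicate (r = 0.831). Replicate 1 of ME at 2.0 mm likewise resembled its own replicate less (r = 0.819). Which of these 2 libraries departs from its group was not tested, and both enter the comparison of lengths in ME. The comparisons of ME with TAP and OSC at 1.5 mm are therefore also given without replicate 2. TAP against ME at 2.0 mm is also given without each ME library of that length. The mitochondrial share in TAP was 9.83% and 10.7% at the shorter length against 0.934% and 0.956% at the longer. With nuclear gene rows only, the number of the 4 factors called was the same in each of the 14 comparisons.

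**Figure D1:**
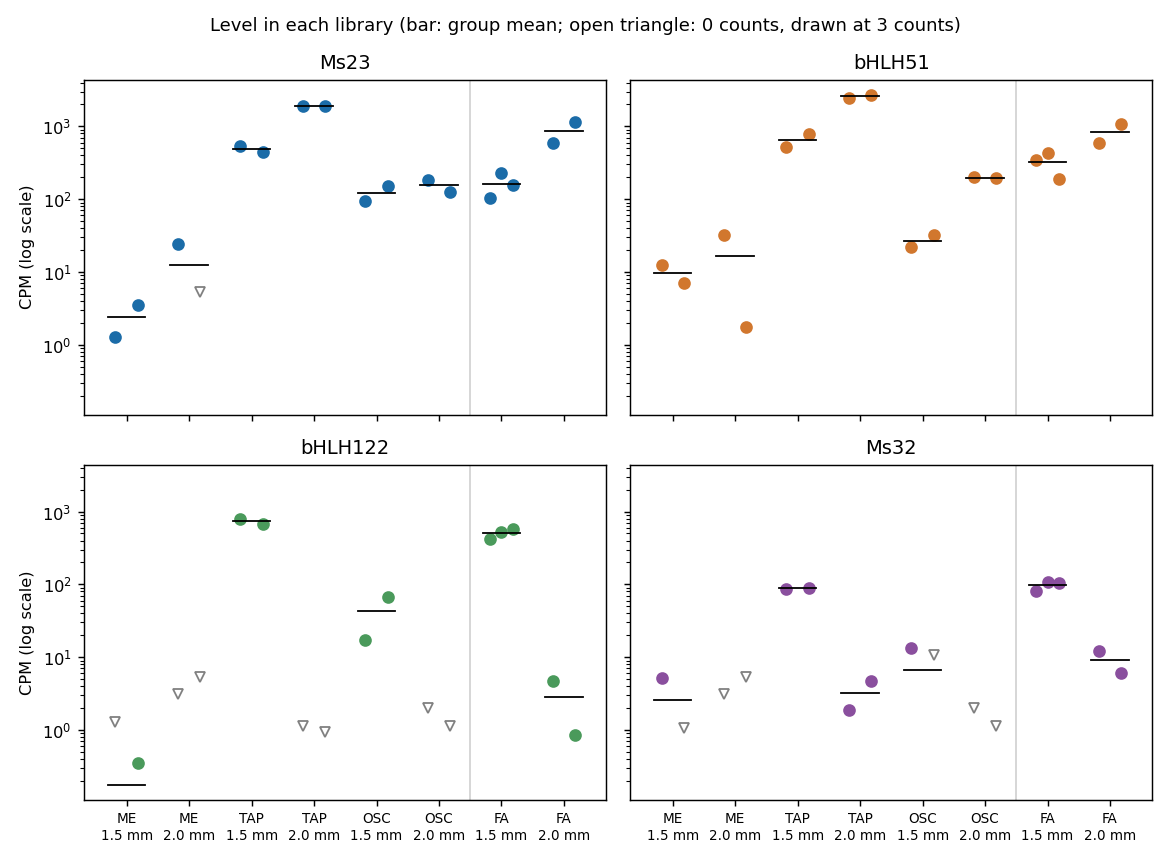
CPM of each factor (log scale) in each library of the 8 groups; dots are libraries, bars are group means and open triangles are libraries with 0 counts drawn at the limit of 3 counts. Ms23 and bHLH51 stood highest in TAP at 2.0 mm, with means of 1889 and 2570 CPM, where bHLH122 had 0 counts in both libraries.

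The first question was how far the 4 factors mark the tapetum among captured cells. At 1.5 mm each of them was higher in both TAP libraries than in every ME and OSC library. Here and below, the share of all genes without overlap between groups was not computed. A lack of overlap therefore describes these libraries only. Against ME, 3 of the 4 were called higher (Ms23, bHLH51 and bHLH122), in a comparison where 10.0% of all 16940 genes tested were called higher. With only the libraries compared in the fit, these 3 stayed called by a narrow margin (edgeR adjusted p = 0.0488 for each). Against OSC, 2 of the 4 were called higher (bHLH51 and bHLH122), where 0.614% of all genes were. The median log2 fold change of the 4 was 6.55 against ME and 3.85 against OSC, beside medians over all genes of 0 and -0.10.

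bHLH122, the maize relative of rice EAT1, held 794 and 683 CPM in TAP at 1.5 mm, from 393 and 343 counts. In ME it held 0 and 1 counts, and in OSC 17.2 and 67.7 CPM. The groups were apart, with TAP far above OSC and ME nearly empty. Over the summed counts the ratio of TAP to ME was 3784, with a 95% exact counting interval from 677 to 149651, wide because ME held 1 count. edgeR's quasi-likelihood test gave adjusted p = 0.00137 against ME, and a log2 fold change of 4.25 ± 0.86 (SE) with adjusted p = 0.0263 against OSC.

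bHLH51, the relative of rice TDR, held 519 and 787 CPM in TAP at 1.5 mm. It held 12.4 and 7.15 CPM in ME, and 22.1 and 32.1 CPM in OSC. Both other cell types were thus low, and OSC above ME was not called (edgeR adjusted p = 0.309). TAP lay above ME by a log2 fold change of 5.80 ± 0.88 (SE; edgeR adjusted p = 0.00213) and above OSC by 4.66 ± 0.86 (edgeR adjusted p = 0.0130).

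Ms23, which acts at the head of the cascade, held 537 and 448 CPM in TAP at 1.5 mm. It held 1.29 and 3.58 CPM in ME and 95.7 and 150 CPM in OSC. OSC lay between the other cell types without overlap. The log2 fold change of TAP over ME was 7.30 ± 1.11 (SE; edgeR adjusted p = 0.00213). TAP over OSC was 2.05 ± 0.86, which was not called (edgeR adjusted p = 0.228), although with only those 4 libraries fitted it was (1.93, adjusted p = 0.00296). DESeq2 did not call it (adjusted p = 0.132). Between ME and OSC, 2 of the 4 were called lower in ME, where 16.3% of all genes were. These were Ms23, with a log2 fold change of -5.25 ± 1.03 (SE; edgeR adjusted p = 0.00394), and bHLH122 (edgeR adjusted p = 0.00273).

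Ms32, the relative of rice UDT1, was the least abundant of the 4, with 86.9 and 89.7 CPM in TAP at 1.5 mm from 43 and 45 counts. ME held 12 and 0 counts and OSC held 11 and 0 counts. The libraries with 0 counts allow up to 1.07 CPM in ME and 10.7 CPM in OSC. The log2 fold change was 4.86 ± 1.72 over ME (SE; edgeR adjusted p = 0.0714) and 3.45 ± 1.64 over OSC (edgeR adjusted p = 0.296), so neither was called. The difference from ME was called without the first ME library, the one that held all 12 counts (adjusted p = 0.0205), and it was 3.63 and not called without the second (adjusted p = 0.155).

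Without the second ME library at 1.5 mm, the log2 fold change of TAP over ME was 8.05 for Ms23 and 5.26 for bHLH51. None is given for bHLH122, at 0 counts in the ME library left. ME against OSC was then -6.05 for Ms23, which stayed called (adjusted p = 0.00501), and -0.65 for bHLH51, which did not pass (adjusted p = 0.609). bHLH122 stayed called lower in ME (adjusted p = 0.00429), and Ms32 was -0.26 (adjusted p = 0.938). The calls of TAP against OSC at 1.5 mm depended on single libraries. bHLH122 was not called without any 1 of the 2 TAP or 2 OSC libraries at 1.5 mm (adjusted p from 0.0861 to 0.252). bHLH51 was not called without the second TAP library or either OSC library (adjusted p from 0.09999 to 0.179), and stayed called without the first TAP library (4.90, adjusted p = 0.0439).

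At 2.0 mm the captured cells gave a different set. Ms23 and bHLH51 were called higher in TAP than in ME and OSC, so 2 of the 4 were called in each comparison, where 18.1% and 2.45% of all genes were called higher. Ms23 held 1883 and 1894 CPM in TAP, 24.6 and 0 CPM in ME, and 184 and 126 CPM in OSC. bHLH51 held 2441 and 2699 CPM in TAP, 31.8 and 1.79 CPM in ME, and 201 and 195 CPM in OSC. For both factors all TAP libraries lay above all OSC libraries, and OSC above ME.

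The log2 fold change of TAP over ME at 2.0 mm was 7.25 ± 1.10 for Ms23 (SE; edgeR adjusted p = 0.000802) and 7.27 ± 0.95 for bHLH51 (edgeR adjusted p = 0.000499). TAP over OSC was 3.38 ± 0.90 for Ms23 (edgeR adjusted p = 0.0240) and 3.47 ± 0.78 for bHLH51 (edgeR adjusted p = 0.0111). Both were lower in ME than in OSC, which makes 2 of the 4, with log2 fold changes of -3.87 ± 0.95 and -3.80 ± 0.82 (edgeR adjusted p = 0.00826 and 0.00416), where 27.9% of all genes were called lower. With only the ME and OSC libraries at 2.0 mm fitted, Ms23 was not called (-3.72, adjusted p = 0.0605). The ME libraries differed, since the first held 55 counts of the 4 factors and the second held 1. Without the first, TAP stayed called above ME for both factors, at 10.66 for bHLH51, set by that 1 count; for Ms23 the ME library left held 0 counts, and no fold is given. Without the second, the log2 fold changes were 6.36 for Ms23 and 6.43 for bHLH51. The calls against OSC were lost for both factors without either OSC library (adjusted p from 0.0751 to 0.165), and for Ms23 without either TAP library (0.0724 and 0.0784).

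Ms32 held 5 and 15 counts in TAP at 2.0 mm (1.88 and 4.64 CPM) and 0 counts in the ME and OSC libraries of that length. The limit of 3 counts in ME averaged 4.22 CPM, above the TAP mean of 3.26 CPM, so a difference from ME was not detectable at this depth. Against OSC the TAP mean was at least 2.08-fold higher, with the limit taken per library, and not called (edgeR adjusted p = 0.159). That bound rests on the second TAP library. The first held 1.88 CPM, under the limit of 1.99 CPM in the first OSC library, and gives none against it. bHLH122 held 0 counts in all 6 captured libraries at 2.0 mm, which allows at most 0.929 to 1.13 CPM in TAP, 1.14 to 1.99 CPM in OSC and 3.08 to 5.36 CPM in ME.

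Across both lengths, TAP was set against all other captured cells by an exact two-sided permutation test of mean log2 CPM, with libraries permuted within each length (4 TAP against 8 other libraries). The 225 arrangements allow no p below 0.00444. The difference was 5.55 for bHLH51 (exact permutation p = 0.00444) and 5.34 for Ms23 (exact permutation p = 0.0178). The values are unadjusted for the 4 factors tested. No value is given for Ms32, since its TAP level at 2.0 mm did not stand above the limits of the ME libraries. For bHLH122 all captured libraries at 2.0 mm were at 0, so only the libraries at 1.5 mm could carry a difference.

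The second question was how the factors change in the tapetum as the anther grows from 1.5 mm to 2.0 mm. bHLH122 fell from 794 and 683 CPM to 0 counts in both libraries, at least 718-fold lower with the limit of 3 counts per library. It was the 1 factor of the 4 called lower (edgeR adjusted p = 0.00141), where 2.85% of all genes were called lower, and 0 of the 4 were called higher, where 0.868% were. The TAP libraries at 2.0 mm were the deeper ones. In libraries of pooled tissue, fewer cells of a type and less RNA per cell cannot be told apart. The call held with each of the 12 captured libraries left out (adjusted p from 2.57e-05 to 0.0203).

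Ms32 went from 86.9 and 89.7 CPM to 1.88 and 4.64 CPM in TAP, without overlap. The ratio of the summed counts was 26.0, with a 95% exact counting interval from 15.9 to 44.6. In the fit of all captured libraries the log2 fold change was -4.69 ± 1.69 (SE) and was not called (edgeR adjusted p = 0.151). With only the 4 TAP libraries it was called, at -4.78 (adjusted p = 0.00324).

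Ms23 went the other way, from 537 and 448 to 1883 and 1894 CPM, and bHLH51 from 519 and 787 to 2441 and 2699 CPM. Neither overlapped between lengths. Their means stood 3.83 and 3.94 times higher at 2.0 mm. The log2 fold changes were 1.97 ± 0.85 (SE; edgeR adjusted p = 0.222) and 2.00 ± 0.74 (edgeR adjusted p = 0.152) and were not called in the fit of all captured libraries. With only the 4 TAP libraries they were, at 1.88 and 1.91 (adjusted p = 0.00102 and 0.00286).

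By the length-scaled level, CPM per kb of the deposited gene length, the order of the factors in TAP changed between lengths. The deposited lengths were 1711 bases for Ms23, 1244 for Ms32, 2610 for bHLH51 and 1982 for bHLH122. At 1.5 mm bHLH122 led with 400 and 345 CPM per kb, followed by Ms23 with 314 and 262, bHLH51 with 199 and 302, and Ms32 with 69.8 and 72.1. Ms23 and bHLH51 overlapped and could not be ordered, while bHLH122 lay above both and Ms32 below. At 2.0 mm Ms23 held 1101 and 1107 CPM per kb and bHLH51 held 935 and 1034. Among all 46430 rows of the table, ranked by CPM per kb, Ms23 then stood at rank 40 and 36 and bHLH51 at rank 44 and 42, against ranks 347 and 438, and 588 and 375, at 1.5 mm. A 3' method yields reads that need not scale with gene length, and in CPM bHLH51 lay above Ms23 in both TAP libraries at 2.0 mm. In CPM at 1.5 mm bHLH51 (519 and 787) overlapped with bHLH122 (794 and 683) and exceeded it in the second TAP library.

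**Figure D2:**
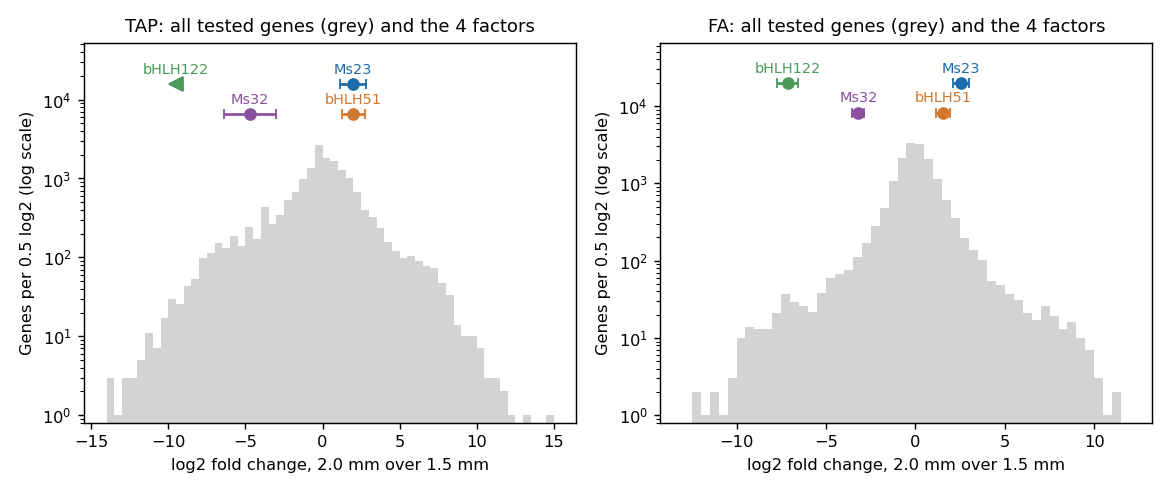
Log2 fold change from 1.5 mm to 2.0 mm for all tested genes (grey bars, number of genes per bin of 0.5, log scale) and for the 4 factors (coloured, with standard error) in TAP (left) and FA (right). The arrowhead for bHLH122 in TAP marks the bound of at least 718-fold lower; in both panels Ms23 and bHLH51 lie to the right of 0 and Ms32 and bHLH122 to the left.

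In OSC, 1 of the 4 factors was called lower at 2.0 mm, where 0.201% of all genes were, and 0 of the 4 were called higher, where 0.0885% were. bHLH122 fell from 17.2 and 67.7 CPM (14 and 19 counts) to 0 counts in both libraries (edgeR adjusted p = 0.0297). Its mean was at least 27.1-fold lower. That bound leans on the second library at 1.5 mm, since the first held 17.2 CPM against limits of 1.99 and 1.14 CPM at 2.0 mm. That call was lost without any 1 of the 4 OSC libraries or the 2 TAP libraries at 1.5 mm (adjusted p from 0.0604 to 0.295). bHLH51 went from 22.1 and 32.1 CPM to 201 and 195 CPM without overlap. Its log2 fold change of 3.18 ± 0.81 (SE) was not called (edgeR adjusted p = 0.138), and it was with DESeq2 (3.09, adjusted p = 0.00459), without a low-count filter, with all 17 libraries fitted and with only the OSC libraries.

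Ms23 stayed in the same range in OSC, with 95.7 and 150 CPM at 1.5 mm and 184 and 126 CPM at 2.0 mm. The log2 fold change was 0.64 ± 0.84 (SE; edgeR adjusted p = 0.857), and the lengths overlapped. Ms32 went from 11 and 0 counts to 0 counts in both libraries (edgeR adjusted p = 0.329).

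In ME, 0 of the 4 factors were called in either direction, where 0.00590% of all genes were called; 2069 genes had an unadjusted p under 0.05 in edgeR, and DESeq2 also called 0 of the 4. Ms23 held 1.29 and 3.58 CPM at 1.5 mm and 24.6 and 0 CPM at 2.0 mm. bHLH51 held 12.4 and 7.15 CPM at 1.5 mm and 31.8 and 1.79 CPM at 2.0 mm. For both, the libraries at 2.0 mm lay on either side of those at 1.5 mm.

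Whether the change with length differed between cell types was tested only where each group held more than 3 counts in some library, which left Ms23 and bHLH51. None of these 4 differences was called, where 1.12% of all genes were called for TAP against ME and 0.809% for TAP against OSC. Of the genes called for TAP against ME, 70.9% were higher with TMM factors, 59.2% with library totals and 44.9% with RLE factors. For Ms23 the change in TAP minus that in OSC was 1.33 ± 1.18 on the log2 scale (SE; edgeR adjusted p = 0.751), and for bHLH51 it was -1.18 ± 1.05 (edgeR adjusted p = 0.751). TAP minus ME was -0.05 for Ms23 (edgeR adjusted p = 0.9999; from -1.10 to 7.20 with single libraries left out) and 1.47 ± 1.06 for bHLH51 (edgeR adjusted p = 0.532). The last of these was called without the first ME library at 2.0 mm (4.88, adjusted p = 0.0262), which leaves 1 ME library at that length, taken to vary like the other groups.

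The third question was how whole fixed anthers, which hold all these cells, change with length. All 4 factors were called there, Ms23 and bHLH51 higher at 2.0 mm and Ms32 and bHLH122 lower, where 15.2% of all 16116 genes tested were called higher and 14.5% lower. With library totals 40.9% of the called genes were higher, against 51.1% with TMM factors. The directions matched those of the group means in TAP. FA and captured libraries are separate libraries.

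bHLH122 fell in FA from 415, 527 and 571 CPM to 4.74 and 0.865 CPM. The last value rests on 2 counts. The log2 fold change was -7.14 ± 0.57 (SE; edgeR adjusted p = 0.000504). Ms32 fell from 80.0, 106 and 103 CPM to 12.2 and 6.06 CPM, a log2 fold change of -3.19 ± 0.34 (SE; edgeR adjusted p = 0.000204). Neither factor overlapped between lengths, and both were called with each FA library left out.

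Ms23 rose in FA from 104, 231 and 158 CPM to 585 and 1137 CPM, a log2 fold change of 2.55 ± 0.43 (SE; edgeR adjusted p = 0.0102). bHLH51 rose from 343, 432 and 189 CPM to 599 and 1072 CPM, a log2 fold change of 1.54 ± 0.41 (SE; edgeR adjusted p = 0.0405). The lengths did not overlap for either factor. For both, the second FA library at 2.0 mm lay well above the first. Ms23 was called with each FA library left out (adjusted p up to 0.0439). The call of bHLH51 was lost without the first FA library at 1.5 mm (adjusted p = 0.0991), without either FA library at 2.0 mm (0.124 and 0.263) and with library totals (0.0634). With all 17 libraries in 1 fit, bHLH51 (adjusted p = 0.192) and Ms32 (adjusted p = 0.106) were not called.

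The levels in FA were then set beside those in TAP. The comparison joins captured cells and whole fixed tissue, so cell type and the way of collection cannot be told apart. At 1.5 mm 0 of the 4 were called in edgeR, where 10.5% of 18310 genes were called and 4952 had an unadjusted p under 0.05. DESeq2 called 1, Ms23 (adjusted p = 0.0134). The TAP mean was 3.01 times the FA mean for Ms23, 2.03 times for bHLH51, 1.46 times for bHLH122 and 0.915 times for Ms32. For Ms32 the FA libraries lay on both sides of the TAP libraries, while for the other 3 both TAP libraries lay above all FA libraries. The log2 fold change of Ms32, 0.06 (edgeR adjusted p = 0.983), was -0.13 when scaled by library totals, so its sign turned.

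At 2.0 mm, 1 of the 4 was called lower in TAP than in FA, where 13.6% of all genes were, and 0 were called higher, where 1.37% were. This was bHLH122, with 0 counts in both TAP libraries against 21 and 2 counts in FA (edgeR adjusted p = 0.0187). The mean in TAP was at least 2.73-fold lower, a bound that rests on the first FA library: the second held 0.865 CPM, under the limits of 1.13 and 0.929 CPM in TAP, and gives none. The call was lost without either TAP library (adjusted p = 0.0717 and 0.115) or without the first FA library (0.221). The TAP mean was 2.19 times the FA mean for Ms23 (edgeR adjusted p = 0.269), 3.08 times for bHLH51 (edgeR adjusted p = 0.0780) and 0.358 times for Ms32 (edgeR adjusted p = 0.492). None of these 3 was called in the main fit. DESeq2 called bHLH51 (adjusted p = 0.0357). So did edgeR with no low-count filter (adjusted p = 0.00990) and with only the libraries compared (adjusted p = 0.0399).

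**Figure D3:**
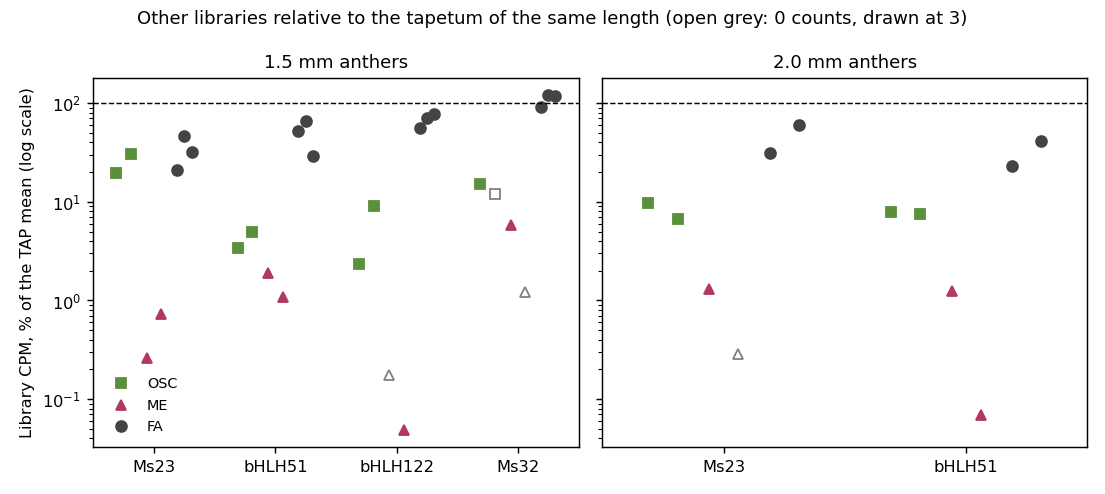
CPM of each OSC, ME and FA library as a percentage of the TAP mean of the same length (log scale), for the factors with counts in TAP at a level that allows it; open grey symbols are libraries with 0 counts drawn at 3 counts. At 1.5 mm OSC stood at 24.9% of TAP for Ms23 and between 4.14% and 7.64% for the other 3 factors.

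Ordered over the 8 groups by mean CPM, Ms23 ran from TAP at 2.0 mm (1889 ± 7.89, SD, n = 2) through FA at 2.0 mm (861 ± 390, n = 2) to TAP at 1.5 mm (493 ± 62.9, n = 2), each apart from the next. FA at 1.5 mm (164 ± 63.7, n = 3) and OSC at 2.0 mm (155 ± 41.3, n = 2) and 1.5 mm (123 ± 38.1, n = 2) followed and overlapped. ME at 2.0 mm (12.3 ± 17.4, n = 2) and 1.5 mm (2.43 ± 1.62, n = 2) came last and overlapped too. For bHLH51 the order was the same, with 2570 ± 182 CPM in TAP at 2.0 mm (n = 2). FA at 2.0 mm (835 ± 334, n = 2) overlapped there with TAP at 1.5 mm (653 ± 189, n = 2). FA at 1.5 mm (321 ± 123, n = 3) overlapped with OSC at 2.0 mm (198 ± 4.73, n = 2). OSC at 1.5 mm (27.1 ± 7.06, n = 2), ME at 2.0 mm (16.8 ± 21.2, n = 2) and ME at 1.5 mm (9.80 ± 3.74, n = 2) formed the low end, each overlapping with the next.

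For bHLH122 the order began with TAP (739 ± 78.0 CPM, n = 2), FA (504 ± 80.2, n = 3) and OSC (42.4 ± 35.7, n = 2), all at 1.5 mm and each apart from the next, followed by FA at 2.0 mm (2.80 ± 2.74, n = 2). The remaining 4 groups held 1 count in all. For Ms32, FA (96.5 ± 14.4 CPM, n = 3) and TAP (88.3 ± 1.99, n = 2) at 1.5 mm overlapped and stood apart from the rest. FA at 2.0 mm (9.12 ± 4.34, n = 2), OSC at 1.5 mm (6.75 ± 9.54, n = 2), TAP at 2.0 mm (3.26 ± 1.95, n = 2) and ME at 1.5 mm (2.58 ± 3.64, n = 2) overlapped in turn.

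The make-up of the 4 factors within a library does not depend on library totals. In TAP at 1.5 mm bHLH122 made up 41.0% and 34.0% of their summed counts, bHLH51 26.8% and 39.2%, Ms23 27.7% and 22.3%, and Ms32 4.48% and 4.46%. At 2.0 mm bHLH51 made up 56.4% and 58.7% and Ms23 43.5% and 41.2%, with Ms32 at 0.0435% and 0.101%. The pool thus went from 4 factors to nearly all Ms23 and bHLH51. The summed level of the 4 in TAP was 1973 ± 50.5 CPM at 1.5 mm (SD, n = 2) and 4462 ± 192 CPM at 2.0 mm (n = 2).

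In FA the make-up moved the same way. bHLH122 made up 44.1%, 40.7% and 55.9% of the summed counts at 1.5 mm and 0.395% and 0.0390% at 2.0 mm. Ms32 made up 8.5%, 8.21% and 10.1% at 1.5 mm, a larger share than in TAP, and 1.02% and 0.273% at 2.0 mm. The exact 95% binomial intervals of the Ms32 share at 1.5 mm were 3.26% to 5.99% and 3.27% to 5.93% in the TAP libraries. In the FA libraries they began at 7.10%, 6.94% and 9.14%, above both.

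**Figure D4:**
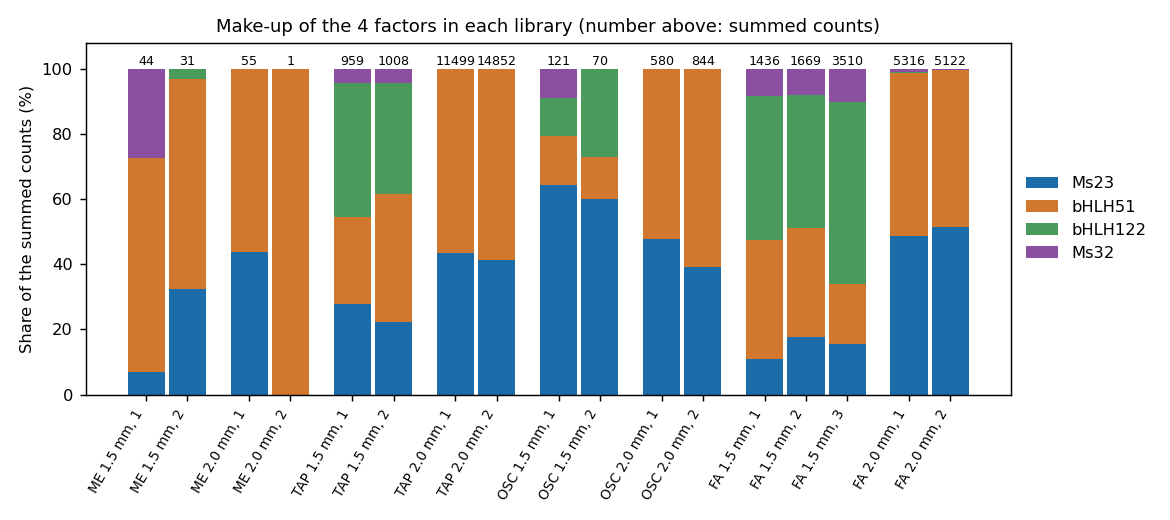
Share of each factor in the summed counts of the 4 (percent, stacked to 100) in each of the 17 libraries, with the summed counts above each bar. bHLH122 fills 34.0% or more of the bar in the TAP and FA libraries at 1.5 mm and 0.395% or less at 2.0 mm; the ME bars rest on 55 counts or fewer.

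In both OSC libraries at 1.5 mm Ms23 held the most counts of the 4 factors. Ms23 made up 64.5% and 60% of the summed counts of the 4 there, on 121 and 70 counts. Taken with bHLH51 alone, Ms23 made up 81.3% (95% exact binomial interval 72.0% to 88.5%) and 82.4% (69.1% to 91.6%) in the OSC libraries. In TAP of the same length it made up 50.9% (46.5% to 55.2%) and 36.3% (32.5% to 40.2%). The intervals did not overlap between the cell types, but those of the 2 TAP libraries did not overlap each other either. Over libraries the difference was not tested, as 2 against 2 gives an exact permutation p of at least 0.333.

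At 2.0 mm the share of Ms23 in both was 47.8% and 39.2% in OSC and 43.5% and 41.2% in TAP, so that the cell types overlapped. As a share of the TAP mean, OSC held 24.9% for Ms23 at 1.5 mm but 5.74% for bHLH122, 4.14% for bHLH51 and 7.64% for Ms32. At 2.0 mm it held 8.20% for Ms23 and 7.70% for bHLH51. ME held 0.494% of the TAP mean for Ms23, 1.50% for bHLH51 and 2.92% for Ms32 at 1.5 mm, and 0.652% and 0.654% for Ms23 and bHLH51 at 2.0 mm. The Ms32 shares rest on 1 library each, as the second ME and the second OSC library at 1.5 mm held 0 counts, with limits of 1.07 and 10.7 CPM. The ME shares of Ms23 and bHLH51 at 2.0 mm rest on the first ME library, with 24 and 31 counts. The second held 0 and 1.

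**Figure D5:**
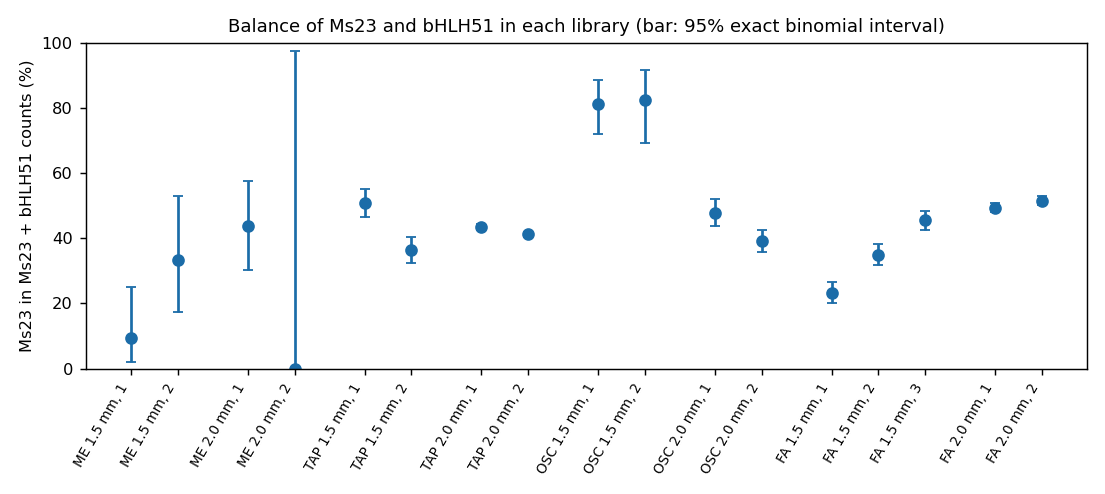
Counts of Ms23 as a percentage of the counts of Ms23 and bHLH51 together in each library, with the 95% exact binomial interval. The OSC libraries at 1.5 mm, at 81.3% and 82.4%, lie above every other library; the interval of the second ME library at 2.0 mm is wide because it rests on 1 count.

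In FA the share of Ms23 in the counts of Ms23 and bHLH51 was 23.2%, 34.8% and 45.5% at 1.5 mm and 49.4% and 51.5% at 2.0 mm. The 3 libraries at 1.5 mm spread widely, with intervals that did not overlap, and all 3 lay below those at 2.0 mm.

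The factors formed pairs by their pattern over the libraries. Likeness was measured as Pearson's r of log2 CPM over the 17 libraries, which share cell types, lengths and depths and are no independent points. Ms23 and bHLH51 had r = 0.932, and Ms32 and bHLH122 had r = 0.846. Ms32 and bHLH122 both held 0 counts in all ME and OSC libraries at 2.0 mm. Those libraries enter their r at the same value. Across the pairs r was 0.366 for Ms23 and Ms32, 0.268 for Ms23 and bHLH122, 0.446 for bHLH51 and Ms32, and 0.238 for bHLH51 and bHLH122. Among 18309 other genes, Ms23 ranked 6 in likeness to bHLH51 and bHLH51 ranked 15 in likeness to Ms23. Ms32 ranked 206 in likeness to bHLH122, and bHLH122 ranked 96 in likeness to Ms32. Over the 12 captured libraries alone Ms23 ranked 14 in likeness to bHLH51, and bHLH51 ranked 54 in likeness to Ms23. Ms32 then ranked 510 in likeness to bHLH122, and bHLH122 ranked 399 in likeness to Ms32.

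The gene most like Ms23 was Zm00001d034733 (r = 0.973), whose TAP level was 180 ± 18.1 CPM at 1.5 mm and 454 ± 52.1 CPM at 2.0 mm (SD, n = 2 in every group). The gene most like bHLH51 was Zm00001d042652 (r = 0.960), with 107 ± 45.8 and then 105 ± 16.6 CPM in TAP. The gene most like bHLH122 was Zm00001d042485 (r = 0.995), whose TAP level went from 185 ± 7.45 to 0.188 ± 0.266 CPM. The gene most like Ms32 was Zm00001d037015 (r = 0.949), whose TAP level went from 165 ± 21.4 to 1.08 ± 1.53 CPM. The sources used here give no name for these 4 genes. Which gene was nearest depended on the libraries used. Over the 12 captured libraries it was Zm00001d004716 for Ms23, Zm00001d017476 for bHLH51 and Zm00001d044769 for Ms32, while bHLH122 kept Zm00001d042485.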

How the data were processed

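The submitters' processing notes name fastp, Trim Galore and HISAT2, and what the authors deposited are unnormalized counts for each gene and library, beside a gene length in bases. Their versions, the counter, the genome build, the annotation, the use of strand and the collapsing of molecular identifiers are not given in the sources used here. Reads of overlapping genes or near-identical copies therefore cannot be told apart, and no coordinates are given.

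From the deposited counts, CPM and CPM per kb were computed by library total, with log2 CPM at a prior count of 2. A library at 0 counts was given a limit of 3 counts. Counts were tested with edgeR 4.0.16 (limma 3.58.1, R 4.3.3), by the quasi-likelihood F-test with TMM factors, filterByExpr (minimum count 10, minimum total 15) and Benjamini-Hochberg adjustment over all genes tested. A gene with adjusted p under 0.05 is termed called. A single fit held the 12 captured libraries (16940 genes), another the 5 fixed anther libraries (16116 genes), and a last one all 17 for tapetum against fixed anthers (18310 genes). All 4 genes passed the filter in each fit. The biological coefficient of variation was 70.6%, 29.5% and 57.1% in these fits. The standard error of a log2 fold change is its size over the root of F, and is not given for changes near 0, where the prior count makes it too small. Exact permutation tests used libraries within each length. Figures used Python 3.11.15 and matplotlib 3.10.9.

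The 4 genes, lists and tests were chosen with earlier results of these data known. The gene printed beside each of the 4 is the one with the highest Pearson r of log2 CPM over the 17 libraries. Symbol lists for the tapetal and phasiRNA pathway (14 symbols) and for markers of meiocytes (12), tapetum (12) and other somatic cells (6) paired with 0 rows, since the RefSeq gene table at hand uses other identifiers, and are not analysed here. Alternatives were RLE factors, library totals, nuclear rows only, no filter, DESeq2 1.42.0, a prior count of 0.5, a replicate block, all 17 libraries, only the libraries compared, and each library left out.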

Additional observations from a re-analysis of the deposited data

How the results depend on the processing

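With RLE factors, with nuclear gene rows only and with a replicate block, the number of the 4 factors called was unchanged in each of the 14 comparisons. Other settings moved it as follows. With no low-count filter it was 4 in place of 3 for TAP against ME at 1.5 mm, 4 in place of 1 for length in TAP, 2 in place of 1 for length in OSC, 1 in place of 0 for TAP against FA at 1.5 mm and 2 in place of 1 at 2.0 mm. DESeq2 gave 2 for length in OSC, 1 for the change with length in TAP against ME (a factor with 0 counts in a compared group, whose change could not be estimated), 1 for TAP against FA at 1.5 mm and 2 at 2.0 mm. With library totals it was 3 in place of 4 for length in FA. With all 17 libraries in 1 fit it was 4 for TAP against ME at 1.5 mm, 2 for length in TAP, 2 for length in OSC and 2 in place of 4 for length in FA. With only the libraries compared it was 4 in place of 2 for TAP against OSC at 1.5 mm, 1 in place of 2 for ME against OSC at 2.0 mm (Ms23 lost), 4 for length in TAP, 2 for length in OSC and 3 for TAP against FA at 1.5 mm. For TAP against FA at 2.0 mm the number was unchanged with only the libraries compared, but the factor called was bHLH51. The share of all genes called is given for the main fits only. The numbers under other settings, or with libraries left out, have no such share beside them. The cause of these moves was not tested.

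With each library left out in turn, the number called ran from 3 to 4 for TAP against ME at 1.5 mm, 0 to 3 in TAP set against OSC of the shorter length, 0 to 2 of the longer, 1 to 3 for length in TAP, 0 to 2 for length in OSC, 3 to 4 for length in FA, 0 to 2 for TAP against FA at either length, and 0 to 1 for the change in TAP against ME. In the other comparisons it stayed at the number reported. The exact permutation tests of TAP against ME and OSC printed for Ms23 and bHLH51 stayed under 0.05 in all alternatives run for them. A lone library left in a group is taken to vary like the other groups.

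Some uncalled log2 fold changes turned sign. Ms32 in ME against OSC at 1.5 mm ran from -6.51 to 5.32 over the libraries left out, Ms23 and bHLH51 with length in ME from -5.20 to 3.10 and from -2.85 to 1.38, the change of Ms23 in TAP against ME from -1.10 to 7.20, and Ms32 in TAP against FA at 1.5 mm from -0.17 to 0.14. The change of Ms23 was 0.060 with no filter, and Ms32 against FA was -0.012 with no filter and -0.13 with library totals. With the replicate block the change of Ms23 was 0.12. Deviations of same-numbered libraries from their group means correlated between -0.211 and 0.127 across genes. The labels do not say whether equal replicate numbers mark a shared origin, and these correlations cannot settle it. The median log2 fold change of all genes moved most with scaling for the change in TAP against ME, from 0.82 with TMM to 0.15 with RLE factors. Depth limits the statements on Ms32 and bHLH122 at 2.0 mm, where captured libraries held few counts or none.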
